A study of Drosophila melanogaster with 10 samples.

Results

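Regions bound by Mod(mdg4)2.2 and by none of the other 4 mapped proteins were collected from chromatin immunoprecipitation followed by sequencing (ChIP-seq) in Kc167 cells, an established Drosophila melanogaster line of embryonic origin. Peaks of the CP190, Su(Hw), Shep, Rump and Mod(mdg4)2.2 lists were merged where they shared 1 bp or more, and a merged region was kept when it held a Mod(mdg4)2.2 peak and no peak of the other 4 lists. This gave 298 Mod(mdg4)2.2-only regions out of 5224 merged regions (5.70%, 95% interval 5.11 to 6.37) and out of 2413 regions with Mod(mdg4)2.2 (12.3%, 11.1 to 13.7). They contain 299 of the 2678 Mod(mdg4)2.2 peaks (11.2%, 10.0 to 12.4). The regions were chosen by peak positions in all 5 lists (present in 1, absent from 4), so these counts describe the choice and are not a result.

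The study holds 10 libraries from untreated cells grown at 25 °C, of which 8 are ChIP libraries and 2 are inputs. Mod(mdg4)2.2 was precipitated with a guinea pig and a rabbit antibody, both from the first of 2 chromatin preparations and with that preparation's input. Rump (antibodies 10c3 and 5g4), Shep (guinea pig and rabbit antibodies) and Su(Hw) (1 rabbit antibody) came from the same preparation, whereas CP190 (1 rabbit antibody) came from the second. There is 1 deposited list per factor, so the spread between antibodies or cultures could not be seen, sequencing depth is unknown, and no test over samples was possible. All intervals below are 95% intervals (Wilson for shares, exact binomial for medians) that cover counting error only. Absence from a list means that the list names no peak there, not that the protein is absent.

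Mod(mdg4)2.2 is a protein isoform of the mod(mdg4) locus, whose many isoforms share a BTB domain and differ in their C-terminal parts. In the gypsy chromatin insulator the zinc-finger protein Su(Hw) binds the DNA, Mod(mdg4)2.2 contacts Su(Hw) through its own C-terminal part, and CP190, another BTB protein, joins them. Rump, an RNA-binding protein related to hnRNP M, and Shep, an RNA-binding protein with RNA recognition motifs, are both known to counteract the activity of this insulator in certain tissues. Regions with Mod(mdg4)2.2 and no Su(Hw) or CP190 peak are thus those where neither of the textbook partners was listed.

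Mod(mdg4)2.2-only regions lay mainly in the lower part of the Mod(mdg4)2.2 list. The peak score is the authors' own signal value for each peak, and it was not part of the rule except through the authors' threshold for the list. Each region took the highest score of its Mod(mdg4)2.2 peaks. The median score was 57.6 (55.4 to 59.3, quartiles 50.8 and 72.0) over the 298 regions, against 118 (113 to 125, quartiles 70.7 and 215) over the other 2115 regions with Mod(mdg4)2.2, a ratio of 0.486. Of the 298, 282 (94.6%, 91.5 to 96.7) were below the median of the whole list, 99.0, compared with 889 of 2115 other regions (42.0%, 39.95 to 44.1). A score of 100 or more was found in 16 of the 298 (5.37%, 3.33 to 8.54) and in 1220 of the others (57.7%, 55.6 to 59.8). A score under 50, close to the lowest of the list at 45.7, was found in 66 (22.1%, 17.8 to 27.2) and in 121 (5.72%, 4.81 to 6.79), respectively.

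The deposited q-values showed the same difference, but they belong to the same peaks as the score and are not separate support. The lowest q in the list, 0.000261, was reached by 100 of the 298 regions (33.6%, 28.4 to 39.1) and by 1657 of the other 2115 (78.3%, 76.5 to 80.1). The median q was 0.00157 for Mod(mdg4)2.2-only regions and 0.000261 for the others, and the highest was 0.00624 in both sets. No peak of the list exceeds this q, so a q under 0.01 holds for every listed peak and is no trait of these regions. Most Mod(mdg4)2.2-only regions were not among the strongest peaks.

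Along the score range, the share of Mod(mdg4)2.2 peaks that stood alone was close to 0 at the top and highest at the bottom. In the decile of highest score, 1 of 267 peaks stood alone (0.375%, 0.0661 to 2.09), in the second 0 of 268 and in the third 1 of 268. In decile 6 it was 30 of 267 (11.2%, 7.99 to 15.6), in decile 9 78 of 268 (29.1%, 24.0 to 34.8) and in decile 10, the lowest, 80 of 268 (29.9%, 24.7 to 35.6). Even in the lowest decile, then, 70.1% of the peaks had another factor. There 18.7% of the peaks lay in regions with CP190 as the sole other factor, 14.9% with Su(Hw) as the sole other factor and 10.1% with Shep as the sole other factor.

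**Figure D1:**
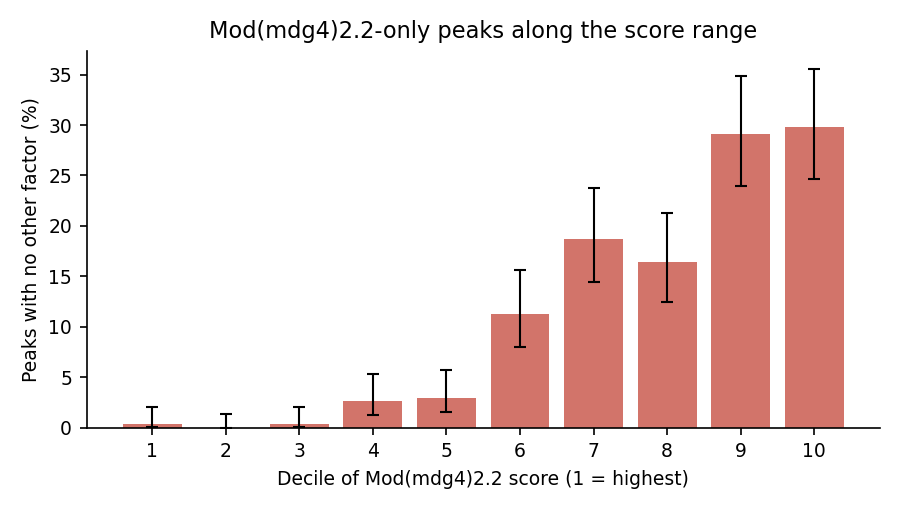
Share of Mod(mdg4)2.2 peaks with no other factor (vertical axis, percent) in each decile of peak score (horizontal axis, 1 is the highest), with Wilson 95% intervals as error bars. The bars stay at or under 2.99% in deciles 1 to 5 and reach 29.1% and 29.9% in deciles 9 and 10.

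Among simple combinations of factors, the Mod(mdg4)2.2-only regions had the lowest median score. The median was 65.5 (60.2 to 72.2) in the 134 regions with Shep as the sole other factor and 68.7 (64.5 to 73.8) in the 292 with CP190 alone beside Mod(mdg4)2.2. The intervals of these medians overlap each other but not that of the Mod(mdg4)2.2-only regions. With Su(Hw) as the sole other factor (486 regions) it was 91.6 (86.5 to 103). With Su(Hw) and CP190 together (765 regions) it was 159 (150 to 164). In the 276 regions with Rump, which may hold any of the other factors too, it was 335 (320 to 347). The 8 Mod(mdg4)2.2 peaks that the Rump list alone kept out of the Mod(mdg4)2.2-only set had a median of 59.7, with no interval taken. Of the regions with 2 or more Mod(mdg4)2.2 peaks, the Mod(mdg4)2.2-only set held 1 of 298 (0.336%), against 126 of 765 (16.5%) of the regions with Su(Hw) and CP190. Merged regions with Su(Hw) or CP190 are wider, since the peaks of those lists have median widths of 2106 and 2025 bp against 304 bp for each Mod(mdg4)2.2 peak, so that they can hold more peaks by their width. Since a region took the highest score of its Mod(mdg4)2.2 peaks, holding more peaks can also raise its score. How far this widened the differences between combinations was not tested.

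**Figure D2:**
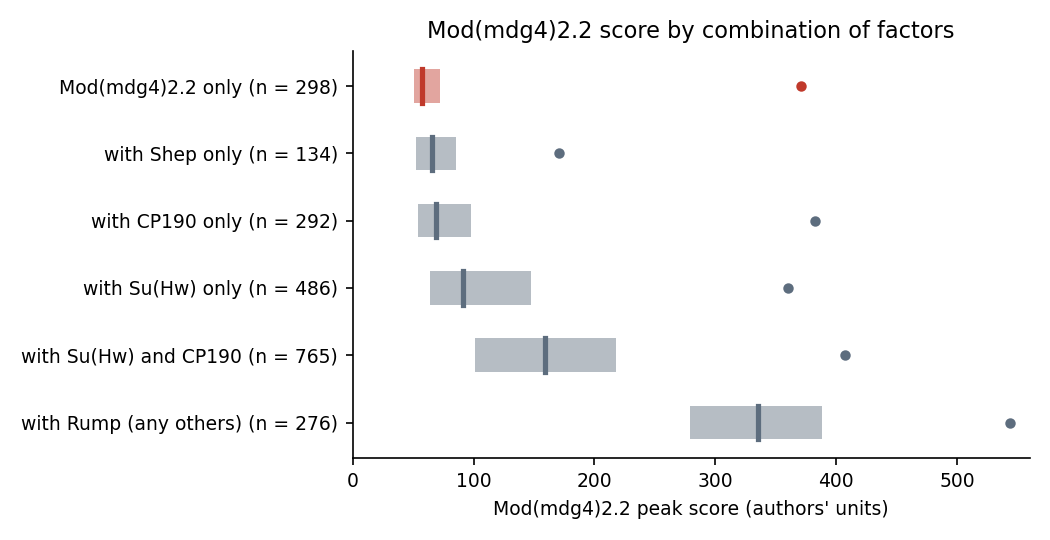
Mod(mdg4)2.2 peak score (horizontal axis, in the authors' units) by combination of factors, with bars from the first to the third quartile, thick lines at the median and points at the highest score. The Mod(mdg4)2.2-only regions have the lowest median of the sets drawn, 57.6, with 1 region at 371. Regions of the set with Rump may hold any of the other factors too.

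One Mod(mdg4)2.2-only region stood far above the rest. It lies at chr3R:14870334-14870637 (build dm3, like all positions here), has a score of 371 and ranks 101 of the 2678 peaks. The next Mod(mdg4)2.2-only score was 179, so no other reached the highest 2 deciles. No peak of the other lists was close to it. The gap, counted as the bases between the edges of the peaks, was 15441 bp to the nearest Shep peak, 29318 bp to CP190, 49403 bp to Su(Hw) and 245573 bp to Rump. The nearest other Mod(mdg4)2.2 region was 76998 bp away.

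The region of second highest score was the only one with 2 Mod(mdg4)2.2 peaks. These overlap each other at chr2L:3357168-3357471, with a score of 179, and at chr2L:3357371-3357674, with a score of 132. The region of 507 bp lay 2128 bp from a region with Mod(mdg4)2.2 and Shep, while Su(Hw) and CP190 were 32937 and 37073 bp away.

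The next 10 by score were taken outside arm 2R, whose members enter the counts only. At chr3R:27539226-27539529 the score was 148 and the nearest other peak was a Shep peak at 11019 bp. At chr3R:5376465-5376768 it was 135, and a second Mod(mdg4)2.2-only region of score 47.7 began only 200 bp further on, at chr3R:5376969-5377272, the smallest gap between any neighbouring Mod(mdg4)2.2-only regions. This pair shows 2 peaks of unlike score side by side, with Su(Hw) more than 10 kb away from both. At chr3L:22400903-22401206, with a score of 131, Shep lay 140059 bp off and the nearest peak of any list 46888 bp off, at a region with Mod(mdg4)2.2, Su(Hw) and CP190.

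Some of the others had a Shep or CP190 peak within a few kb, and some only at about 10 kb. At chr3L:9685695-9685998 (score 128) the nearest was Shep at 1257 bp. At chr3L:14753142-14753445 (score 119) a CP190 peak lay at 670 bp and a Shep peak at 1381 bp. At chrX:8315241-8315544 (score 124) Shep lay at 9349 bp, and at chr2L:16268044-16268347 (score 117) Shep lay at 10143 bp. Shep was the nearest list at 6 of the 12 highest outside 2R, from the score of 371 down to that of 117, with gaps from 1257 to 15441 bp. Over all 298 regions it was nearest at 91 (30.5%, 25.6 to 36.0), and 12 regions are too few to compare with that share. Near the lower end of the 12, Su(Hw) was nearest at chr3R:15789491-15789794 (score 110, gap 39 bp) and at chr3R:21523394-21523697 (score 103, gap 3910 bp). CP190 was nearest at chr3R:6715017-6715320 (score 102, gap 2922 bp).

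The gap to the nearest peak of any of the other 4 lists had a median of 4201 bp (3220 to 5129, quartiles 1223 and 10992 bp). Of the 298 regions, 65 (21.8%, 17.5 to 26.8) had such a peak within 1 kb, 164 (55.0%, 49.4 to 60.6) within 5 kb and 216 (72.5%, 67.2 to 77.2) within 10 kb. The nearest list was Su(Hw) at 123 regions (41.3%, 35.8 to 46.9), Shep at 91 (30.5%, 25.6 to 36.0), CP190 at 83 (27.9%, 23.1 to 33.2) and Rump at 1. The median gap was 2578 bp where Shep was nearest, 4343 bp where Su(Hw) was and 6773 bp where CP190 was. The score had no clear relation to this gap. Its median was 58.3 (53.1 to 65.2) in the 65 regions with a peak within 1 kb, 57.6 (54.9 to 59.3) in the 151 at 1 to 10 kb and 56.8 (53.1 to 65.1) in the 82 beyond 10 kb. Over the 298 regions, Spearman's rho of score and gap was 0.0119, a description across regions of the same lists.

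**Figure D3:**
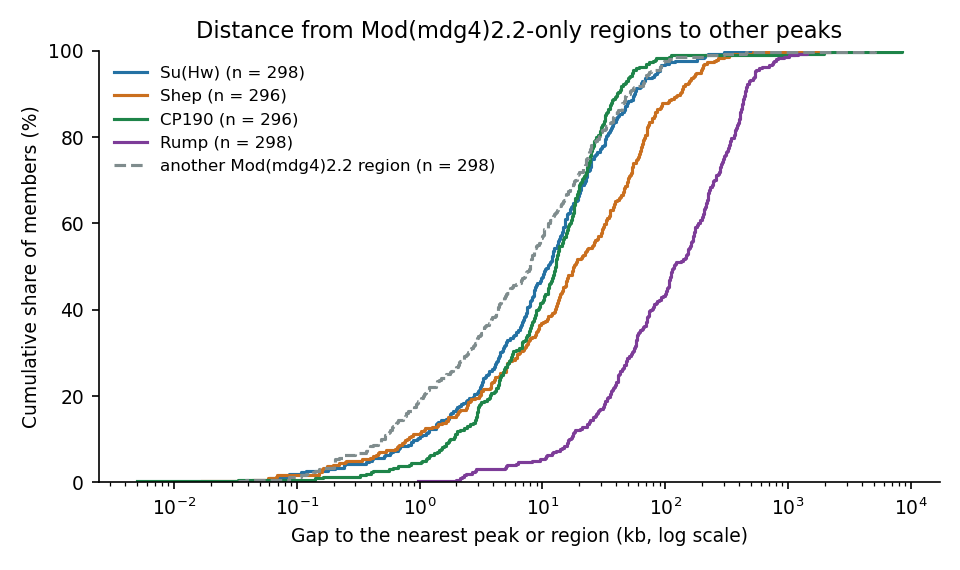
Cumulative share of Mod(mdg4)2.2-only regions (vertical axis, percent) by gap to the nearest peak of each other list or to another Mod(mdg4)2.2 region (horizontal axis, kb, log scale). The Su(Hw) and Shep lines run close together up to about 1 kb, with the CP190 line below them (13 regions with CP190 within 1 kb against 33 with Shep). By 5 kb the CP190 line has met the Shep line (26.6% and 25.9%, counted per peak) and the Su(Hw) line lies above them (31.8%). The Rump line lies far to the right, with 16 regions within 10 kb.

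The surroundings of the Mod(mdg4)2.2-only peaks differed most from those of other Mod(mdg4)2.2 peaks in the closeness of Shep. Each Mod(mdg4)2.2 peak that did not itself overlap a Shep peak was measured to the nearest one, peak by peak, so that the width of merged regions played no part. This measure and the emphasis on Shep were chosen after the gaps to all lists had been seen. A Shep peak lay within 5 kb of 77 of 297 Mod(mdg4)2.2-only peaks (25.9%, 21.3 to 31.2) and of 242 of 2083 other Mod(mdg4)2.2 peaks (11.6%, 10.3 to 13.1). Within 1 kb it was 33 of 297 (11.1%) against 72 of 2083 (3.46%). The median gap to Shep was 17854 bp (quartiles 4497 and 59521 bp) against 35730 bp (quartiles 13779 and 76743 bp). Left out were 2 Mod(mdg4)2.2-only peaks and 7 others on sequences without a Shep peak. No such share was taken over all merged regions, so it cannot be said which set departs from that background. By next neighbour, Shep-only regions made up 15.4% beside Mod(mdg4)2.2-only regions and 12.01% beside other Mod(mdg4)2.2 regions. They were 15.5% of all merged regions.

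The difference in closeness to Shep was also present among peaks of low score. Below the median score of the list, the shares within 5 kb of Shep were 71 of 280 (25.4%, 20.6 to 30.8) and 101 of 838 (12.1%, 10.0 to 14.4). Among the other peaks the share was 12.9% (9.73 to 16.8) with CP190 and no Su(Hw), 10.2% (7.98 to 12.9) with Su(Hw) and no CP190, and 11.9% (10.2 to 13.9) with both. The intervals of these 3 overlap, and each lies below that of the Mod(mdg4)2.2-only peaks. Many Shep peaks have a high q, up to 0.156, so the count was repeated with Shep peaks of q up to 0.05. It then gave 57 of 294 (19.4%, 15.3 to 24.3) against 198 of 2122 (9.33%, 8.17 to 10.6).

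The share within 5 kb of Shep was higher for Mod(mdg4)2.2-only peaks than for other Mod(mdg4)2.2 peaks on each of the 5 arms, with wide intervals. It was highest on 2R, at 22 of 50 (44.0%, 31.2 to 57.7) against 15.3% (11.9 to 19.5). On X it was 17 of 58 (29.3%, 19.2 to 42.0) against 12.9% and on 3R 20 of 72 (27.8%, 18.8 to 39.0) against 13.1%. On 2L it was 9 of 53 (17.0%, 9.20 to 29.2) against 8.99% and on 3L 7 of 59 (11.9%, 5.87 to 22.5) against 8.10%, and on these arms the intervals of both sets overlap. Without 2R, 22.3% (17.5 to 27.9) of 247 Mod(mdg4)2.2-only peaks had Shep within 5 kb, against 10.9% (9.48 to 12.4) of 1731 others.

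**Figure D4:**
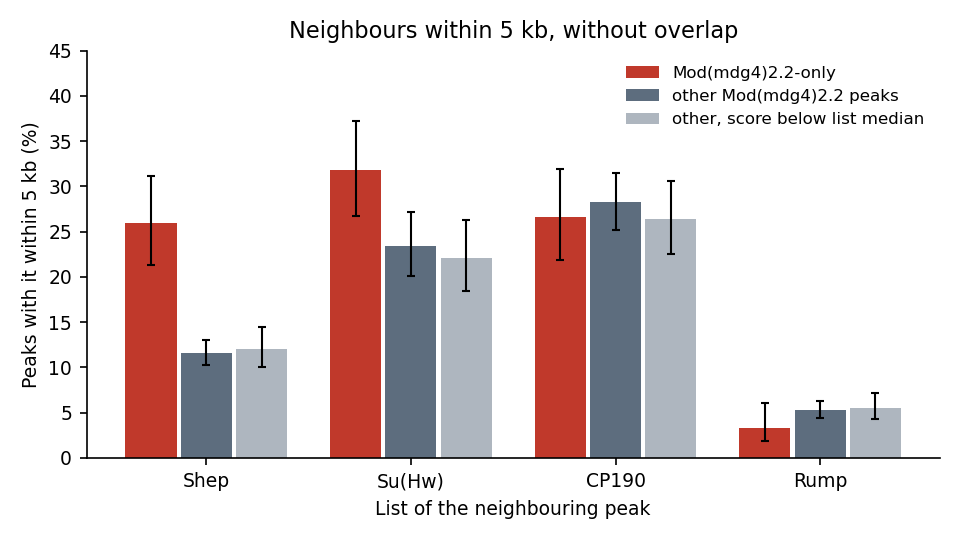
Share of Mod(mdg4)2.2 peaks (vertical axis, percent) with a peak of Shep, Su(Hw), CP190 or Rump within 5 kb, among peaks that do not overlap that list, with Wilson 95% intervals. For Shep the Mod(mdg4)2.2-only peaks are at 25.9% and the others at 11.6%, while for CP190 the values are 26.6% and 28.3%.

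For Su(Hw) the difference was smaller, and for CP190 none was seen beyond counting error. Su(Hw), the DNA-binding partner, lay within 5 kb of 95 of 299 Mod(mdg4)2.2-only peaks (31.8%, 26.7 to 37.2) and of 129 of 550 other Mod(mdg4)2.2 peaks that did not overlap Su(Hw) (23.5%, 20.1 to 27.2). These intervals touch. Below the median score of the list, the shares were 31.6% (26.4 to 37.2) and 22.1% (18.5 to 26.3), with intervals just apart. CP190 lay within 5 kb of 79 of 297 (26.6%, 21.9 to 31.9) and of 217 of 768 (28.3%, 25.2 to 31.5), and the median gaps to CP190 were 12826 and 12225 bp. Rump was within 5 kb of 10 of 299 (3.34%, 1.83 to 6.05) and of 110 of 2099 (5.24%, 4.37 to 6.28). The median gap to Rump was 118652 bp, and only 1 Mod(mdg4)2.2-only region had Rump within 1 kb. Another Mod(mdg4)2.2 peak lay within 5 kb of 120 of 299 Mod(mdg4)2.2-only peaks (40.1%, 34.7 to 45.8) and of 928 of 2379 others (39.0%, 37.1 to 41.0). Within 500 bp such a peak was less frequent, at 16 of 299 (5.35%, 3.3 to 8.5) against 238 of 2379 (10.0%, 8.9 to 11.3). Within 1 kb the intervals overlapped, at 14.05% and 16.3%.

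The edge of the rule ran through few regions. A peak of another list lay within 100 bp of 12 of the 298, namely Su(Hw) at 6, Shep at 5 and CP190 at 2, with 1 region close to both Su(Hw) and CP190. Outside 2R the closest was chr2L:12993470-12993773 (score 46.7), 5 bp from a CP190 peak. It was followed by chrX:18921411-18921714 (score 48.0), 33 bp from CP190, 59 bp from Su(Hw) and 976 bp from Rump, and by chr3R:15789491-15789794, 39 bp from Su(Hw). Just outside the rule, outside 2R, the region chr3R:4804755-4807103 (score 47.6) holds a Mod(mdg4)2.2 peak that shares 7 bp with a CP190 peak. Likewise, chr3L:11545930-11546706 (score 78.4) shares 11 bp with a Shep peak and chr3L:15097430-15098194 (score 47.1) shares 23 bp. In 10 of the other 2115 regions the largest overlap was at most 100 bp, while in 2029 (95.9%) a whole Mod(mdg4)2.2 peak of 304 bp was covered.

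Over the chromosome arms the Mod(mdg4)2.2-only regions were spread like the other Mod(mdg4)2.2 regions, within counting error. Arm 2L held 52 (17.4%, 13.6 to 22.2), 2R 50 (16.8%, 13.0 to 21.4), 3L 59 (19.8%, 15.7 to 24.7), 3R 72 (24.2%, 19.6 to 29.3) and X 58 (19.5%, 15.4 to 24.3). The other regions had 16.4%, 18.0%, 19.4%, 25.8% and 19.2% on the same arms. Per Mb of arm, counted up to the last peak, there were between 2.27 (2L) and 2.59 (X) Mod(mdg4)2.2-only regions. Along the arms, from the telomere to the centromere in 5 equal parts, 57, 62, 70, 52 and 50 of the 291 regions on the 5 arms were found. The part next to the centromere held 17.2% (13.3 to 21.9), against 17.0% (15.5 to 18.7) of the other Mod(mdg4)2.2 regions.

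**Figure D5:**
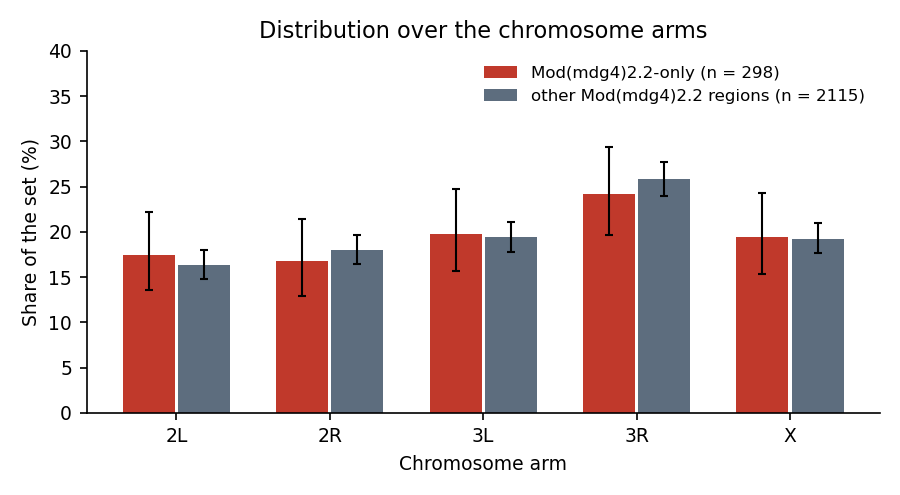
Share of Mod(mdg4)2.2-only regions and of the other Mod(mdg4)2.2 regions on each chromosome arm (vertical axis, percent of all regions of the set), with Wilson 95% intervals. The intervals of both sets overlap on every arm, with 24.2% and 25.8% on 3R.

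Outside these arms there were 7 Mod(mdg4)2.2-only regions (2.35%, 1.14 to 4.77), beside 26 of the others (1.23%, 0.840 to 1.80). A pair lay on chromosome 4, at chr4:528116-528419 (score 56.0) and chr4:529063-529366 (score 58.0), 643 bp apart and with a Shep peak 68 bp from the first. Another 2 lay on the heterochromatic scaffold 2RHet, 1 on 3LHet and 2 on the unplaced sequence U, with scores from 50.7 to 81.6. On 2RHet, 3LHet and U the nearest peak of another list was between 22938 and 684826 bp away, on sequences with few peaks.

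Most Mod(mdg4)2.2-only regions lay far from the next one, but the spacing of other regions was not taken for comparison. Beside Mod(mdg4)2.2-only regions, 11.4% of the next neighbours were also Mod(mdg4)2.2-only, against 6.27% beside other Mod(mdg4)2.2 regions, as given below. The median gap between neighbouring Mod(mdg4)2.2-only regions was 233855 bp (quartiles 80775 and 633669 bp), and in 100 kb windows 190 held 1, 45 held 2 and 6 held 3. Of the 298, 73 (24.5%, 19.96 to 29.7) were more than 10 kb from any peak of all 5 lists and 8 (2.68%, 1.37 to 5.21) more than 50 kb. Among the 5 windows outside 2R with 3 regions, 1 on 3L (chr3L:14700001-14800000) held no other Mod(mdg4)2.2 region. Its 3 regions had scores of 79.3, 58.4 and 119 and gaps of 735 and 3508 bp between them, in a window with 3 Shep, 1 Su(Hw) and 2 CP190 peaks. The window chr3R:600001-700000 also held 3 (scores 85.4, 50.5 and 58.0) and no other Mod(mdg4)2.2 region, with 3 Shep and 2 Su(Hw) peaks and no CP190 peak. The window chr2L:2200001-2300000 held 3 (scores 54.1, 71.1 and 91.9) beside 1 other Mod(mdg4)2.2 region, with 2 Su(Hw) peaks and no Shep or CP190 peak.

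Next along the chromosome, most neighbours of a Mod(mdg4)2.2-only region were of other kinds. Of its 596 neighbouring regions, left and right, 68 were Mod(mdg4)2.2-only (11.4%, 9.10 to 14.2), against 265 of 4223 neighbours of other Mod(mdg4)2.2 regions (6.27%, 5.58 to 7.05). In runs with no other region between them, 235 stood singly, 25 runs had 2, 3 runs had 3 and 1 run had 4. Regions with Mod(mdg4)2.2, Su(Hw) and CP190 made up 18.6% (15.7 to 21.9) of the neighbours, against 24.9% (23.6 to 26.2) for other Mod(mdg4)2.2 regions. CP190-only regions made up 12.4% (10.0 to 15.3) against 16.0% (15.0 to 17.2), and Shep-only regions 15.4% (12.8 to 18.6) against 12.01% (11.1 to 13.0), where the intervals touch. Over all 5224 merged regions, Mod(mdg4)2.2-only regions made up 5.70%, CP190-only regions 19.2% and Shep-only regions 15.5%, so the share of Shep-only neighbours was close to that of all regions. Each pair of adjacent Mod(mdg4)2.2-only regions counts from both sides, and neighbours on 1 chromosome are not independent.

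How many regions count as Mod(mdg4)2.2-only depended on the other lists. Without the Su(Hw) list 861 regions would have qualified, without CP190 631, without Shep 434 and without Rump 306. The Mod(mdg4)2.2 peaks that then joined had median scores of 90.5, 68.4, 64.6 and 59.7, beside the 57.6 of the 298 regions. No intervals were taken for these medians, and the last rests on only 8 peaks. The CP190 list is the only one from the second chromatin preparation, and its effect on the choice cannot be told apart from that preparation. Su(Hw) and CP190 peaks are wide, and with every peak of the 5 lists set to 300 bp around its midpoint the Mod(mdg4)2.2-only regions numbered 577. All 299 peaks stayed in that set and 281 joined, of which 227 had overlapped a Su(Hw) peak and 179 a CP190 peak as deposited. The median score of the joining peaks was 82.4 (75.5 to 90.6).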

How the data were processed

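ChIP-seq peak lists of 5 proteins in Kc167 cells were used, 1 per factor, each pooling 1 or 2 libraries. Per the submitters' processing notes, the build was dm3 and the tools named are Bowtie 0.12.8, Picard 1.77, bedtools 2.17.0, Trimmomatic 0.20 and cutadapt 1.1. Neither the peak caller nor its threshold nor the depth is given in the sources used here. The authors deposited peak positions for all lists, and for Mod(mdg4)2.2, Rump and Shep also a peak score and the −log10 of a q-value, by the narrowPeak layout. Starts, counted from 0 as deposited, are printed counted from 1.

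Peaks were merged at an overlap of 1 bp or more, and a region took the highest score of its Mod(mdg4)2.2 peaks. Regions named are the 12 of highest score outside 2R, those with more than 1 Mod(mdg4)2.2 peak, those nearest the rule's limit and 3 windows of 100 kb. Members and lists were chosen with earlier results of these data known. No test was made, since there is 1 list per factor and peaks are not replicates. Shares carry Wilson 95% intervals and medians exact binomial ones. Merging, gaps and intervals were tested on simulated data, whose regions lay several kb apart, so gaps of a few bp between peaks were not tried. Sequence and genes at the regions were not analysed here, as no dm3 genome was used. Software was SciPy 1.17.1, NumPy 2.4.6, matplotlib 3.10.9 and pandas 2.3.3 under Python 3.11.15.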

Additional observations from a re-analysis of the deposited data

How the results depend on the processing

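The alternatives were other merging distances, overlap rules, widths, thresholds, chromosomes and sets of lists. The number of Mod(mdg4)2.2-only regions, 298, stayed between 222 and 434 except with peaks of 300 bp (577), the Mod(mdg4)2.2 peaks at or above the median score (16), no CP190 list (631) and no Su(Hw) list (861, a setting added after seeing the data). With the first 3 of these the median score was 65.6, 126 and 62.4, and it stayed within the interval of the reported 57.6 in the other 7 planned settings. The share below the median score of the list was 78.2% with peaks of 300 bp and 84.5% without CP190. The share on X was 6.25% at or above the median score, which leaves 1 of 16 regions. The share with another list's peak within 1 kb was 9.13% and 0% when peaks up to 500 and 1000 bp apart were merged, which removes such regions by construction. It was 27.6% per peak with 50% coverage, where a counted peak can still overlap another list. With peaks of 300 bp, where former overlaps can become short gaps, it was 54.3%. It was 15.7% without CP190 and 11.3% without Shep, where peaks of the list left out were not counted as near either. These shifts too come in part from the settings themselves. The share within 5 kb of Shep was 19.4% with Shep peaks of q up to 0.05. This share, as measured peak by peak, and its alternatives were chosen after seeing the data. No paired analysis was possible because the deposited lists combine the libraries and no test was made. For the same reason no replicate could be left out. Depth limits are unknown without read numbers.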
